A study of Mus musculus with 14 samples.

Results

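The MHC class II presentation genes described here are Cd74, H2-Aa, H2-Ab1, H2-Eb1, H2-DMa, H2-DMb1, H2-DMb2, H2-Oa, H2-Ob and Ciita, 10 of the 46078 genes counted. They are the table rows whose Ensembl identifiers carry these mouse symbols. The family was selected on measured values, since the higher counts of several members in Il15-deleted cells were already known. Their genotype differences are therefore given as a description. All 10 were found and all 10 passed the filter on low counts, which kept 26990 genes.

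The RNA came from immature natural killer cells (NK cells) and innate lymphoid cells of type 1 (ILC1s), related lymphocytes without a rearranged antigen receptor that depend on the cytokine interleukin 15. Per the labels' protocols, 2000 immature NK cells per sample (iNK; NK1.1+, DX5+, CD27+, CD3-, CD11b-, IL-7Ra-) or immature ILC1s (iILC1; NK1.1+, CD49a+, IL-7Ra+, CD3-) were sorted from marrow of C57BL/6 mice aged 8 weeks. The groups were Vav-Cre Il-15-flox/KO iNK (cKO iNK, n = 4), Il-15-flox/KO iNK (control iNK, n = 3), Vav-Cre Il-15-flox/KO iILC1 (cKO iILC1, n = 4) and Il-15-flox/KO iILC1 (control iILC1, n = 3). Control and cKO mice thus both carried a floxed and a knockout Il15 allele. The cKO mice also carried Vav-Cre, a recombinase transgene that acts throughout the blood lineage. The design is meant to leave the floxed Il15 allele, but not the knockout allele, working in non-blood cells. Whether each sample came from its own mouse is not in the labels.

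Class II molecules carry peptides from the endosome to the cell surface, where CD4 T cells read them. The α and β chains are held by the invariant chain CD74 until they reach the endosome, where the H2-DM heterodimer loads peptide and H2-O restrains H2-DM. The coactivator CIITA, induced by interferon-γ or present through B-cell and dendritic-cell programmes, switches the family on at promoters that share an X and a Y box, bound by RFX, CREB and NF-Y. In mouse marrow and lymphoid tissue, B cells, dendritic cells and macrophages are the best known sources. In C57BL/6 mice the α chain gene of the I-E molecule is defective, so the I-A molecule, made by H2-Aa and H2-Ab1, is the class II molecule of the cell surface.

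The promoters of 4 members are shown because they hold the X and Y boxes through which the family is known to be switched on together. Each is RefSeq sequence of GRCm38.p6, written 5′ to 3′ on the gene's own strand and 56 bases long, ending at the Y box. The capitals mark an X-like motif (CNNGNAAC, first) and the Y box (GATTGG, last).
H2-Aa, chr17:34287867-34287922, minus strand: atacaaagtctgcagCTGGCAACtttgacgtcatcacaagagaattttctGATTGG
H2-Eb1, chr17:34305757-34305812, plus strand: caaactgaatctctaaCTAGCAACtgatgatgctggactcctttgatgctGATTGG
H2-Ob, chr17:34238797-34238852, plus strand: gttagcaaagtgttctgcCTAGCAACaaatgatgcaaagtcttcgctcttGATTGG
H2-Oa, chr17:34092285-34092340, plus strand: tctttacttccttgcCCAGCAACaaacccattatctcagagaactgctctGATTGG
The gap between the motifs was 27 bases in H2-Aa, 26 in H2-Eb1, 24 in H2-Ob and 27 in H2-Oa. The promoter table, with 250 bases before and 50 after each start, held 7 of the 10 members, and 5 had the pair at a gap of 10 to 40 bases. The fifth was H2-DMb1, with the X-like letters CTAGTAAC and a gap of 27. Its window lies wholly within exons of the counted gene and is not shown. The promoter starts listed for H2-DMa lie 12350 and 9664 bases from the first base of the counted gene. The start listed for H2-DMb2 lies 1942 bases from the first base of its counted gene. The motifs of H2-DMa and H2-DMb2 are therefore not described, and Cd74, H2-Ab1 and Ciita had no entry. Over both strands, the Y box was in 5292 of 32851 promoters (16.11%), the X-like motif in 12843 (39.09%) and the pair in 135 (0.4109%). The motifs were written down after these sequences had been read, so the match is a description. The genes with the pair include H2-Aa and H2-Oa, which differed in opposite directions between the cell types.

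On the build of the table (mm10, the GRCm38 assembly), H2-Oa (ENSMUSG00000024334) lies on chromosome 17 at 34092340 to 34095234, plus strand. H2-DMa (ENSMUSG00000037649; 34135182 to 34139101), H2-DMb2 (ENSMUSG00000037548; 34143307 to 34151553) and H2-DMb1 (ENSMUSG00000079547; 34153072 to 34160230) follow on the same strand. H2-Ob (ENSMUSG00000041538; 34238903 to 34245907), H2-Ab1 (ENSMUSG00000073421; 34263209 to 34269418) and H2-Eb1 (ENSMUSG00000060586; 34305877 to 34316199) come next, also on the plus strand, and H2-Aa (ENSMUSG00000036594; 34282744 to 34287827) lies between the last pair on the minus strand. Ciita (ENSMUSG00000022504) lies on chromosome 16 at 10488178 to 10527564 and Cd74 (ENSMUSG00000024610) on chromosome 18 at 60803848 to 60812646, both on the plus strand. The kit does not keep strand, so reads from the 200 exon bases that H2-Oa shares with the opposite-strand gene BC051537, and the 111 that Ciita shares with Dexi, cannot be told apart.

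Total counts per library were 6254844 to 12572326 in cKO iNK, 6238016 to 8013984 in control iNK, 5478641 to 10308693 in cKO iILC1 and 3512796 to 4933284 in control iILC1. Expression is given as CPM, the read count scaled to a common library size with TMM factors. Of the genes behind the sort gates, Il7r and Itga1 (CD49a) were higher, and Itga2 (DX5) lower, in iILC1 than in iNK cells of both genotypes, while Il7r was also 1.42 higher on the log2 scale in cKO than in control iNK. Il15 itself averaged 10.6 CPM in cKO iNK, 9.85 in control iNK, 18.02 in cKO iILC1 and 12.9 in control iILC1. A count over the whole gene does not resolve the floxed part, so it checks no label. Olfactory and vomeronasal receptor genes, which should be silent in lymphocytes, summed to 1358 to 2988 CPM per library. The mean was 2064 CPM in cKO iNK, 1787 in control iNK, 2350 in cKO iILC1 and 2650 in control iILC1. Control iNK replicate 1 (1358 CPM) and cKO iILC1 replicate 1 (1539 CPM) had the least of this background and lay lowest on the first principal component. Control iNK replicate 2 came next, at 1567 CPM. Values without the 2 low-background libraries, control iNK replicate 1 and cKO iILC1 replicate 1, are given beside the calls of members and other named genes that they alter.

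**Figure D1:**
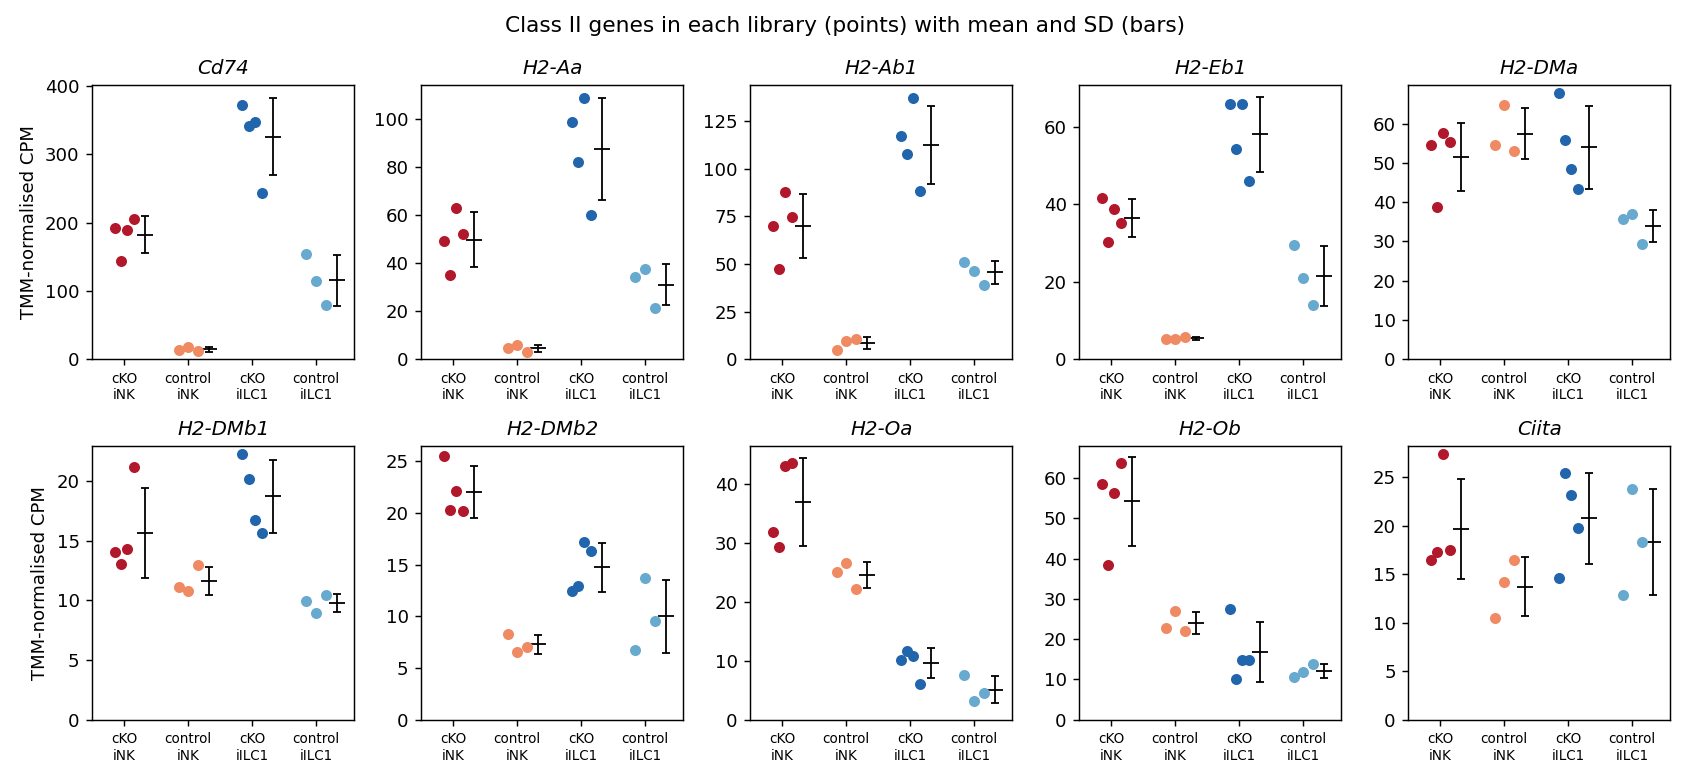
Each panel shows 1 class II gene, with TMM-normalised CPM on the vertical axis (starting at 0) and 1 point per library in cKO iNK, control iNK, cKO iILC1 and control iILC1; the bars give mean and SD. In the first 4 panels all cKO points lie above all control points of the same cell type, whereas the points of Ciita overlap in iILC1.

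In cKO iNK cells, the genes of the class II chains and the invariant chain stood far above control iNK. Cd74, the invariant chain, had 192, 144, 189 and 205 CPM in the cKO iNK libraries, against 13.0, 18.0 and 11.7 CPM in control iNK. H2-Aa, the I-A α chain, had 49.3, 35.1, 62.8 and 52.0 CPM in cKO iNK, against 4.69, 5.89 and 2.88 CPM in control iNK. The lowest cKO iNK library, replicate 2 for both genes, thus held several times the highest control iNK value. H2-Ab1, the I-A β chain, had 70.1, 47.4, 87.9 and 74.9 CPM in cKO iNK, against 5.00, 9.66 and 10.6 CPM in control iNK. H2-Eb1, the I-E β chain, had 41.6, 30.2, 38.9 and 35.3 CPM in cKO iNK, against 5.15, 5.08 and 5.76 CPM in control iNK. No library of either gene overlapped between the genotypes. The log2 fold changes, cKO over control, were 3.68 (SE 0.278) for Cd74, 3.47 (SE 0.304) for H2-Aa, 3.06 (SE 0.275) for H2-Ab1 and 2.77 (SE 0.270) for H2-Eb1, which are 12.8-fold, 11.1-fold, 8.33-fold and 6.82-fold. In a bulk sample, fewer or more cells that express a gene and less or more of its RNA per cell cannot be told apart.

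The same 4 genes were higher in cKO iILC1 cells, from a higher control level. Cd74 had 372, 342, 348 and 243 CPM in cKO iILC1, against 154, 114 and 79.1 CPM in control iILC1. H2-Aa had 98.8, 82.3, 109 and 60.0 CPM in cKO iILC1, against 34.2, 37.6 and 21.2 CPM in control iILC1. The lowest cKO library was replicate 4 for both, still above every control. H2-Ab1 had 118, 108, 138 and 88.2 CPM in cKO iILC1, against 50.9, 46.5 and 39.2 CPM in control iILC1. H2-Eb1 had 65.9, 54.2, 66.0 and 46.1 CPM in cKO iILC1, against 29.5, 21.1 and 13.9 CPM in control iILC1. Again neither gene overlapped between the genotypes. The log2 fold changes were 1.50 (SE 0.245) for Cd74, 1.50 (SE 0.261) for H2-Aa, 1.45 (SE 0.243) for H2-Eb1 and 1.31 (SE 0.244) for H2-Ab1. Control iILC1 replicate 3 was the lowest control library for each of the 4 genes, and without it the log2 fold changes were 1.29, 1.29, 1.21 and 1.22 in that order.

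H2-DM loads peptide onto class II, and of its chain genes H2-DMb2 differed most between the genotypes in iNK and H2-DMb1 in iILC1. H2-DMa, its α chain, had 54.5, 38.7, 57.7 and 55.3 CPM in cKO iNK, against 54.5, 64.8 and 52.9 CPM in control iNK. In iILC1 it had 67.9, 56.0, 48.4 and 43.5 CPM in cKO, against 35.7, 37.0 and 29.3 CPM in control. The genotypes overlapped in iNK and not in iILC1, with log2 fold changes of -0.16 (SE 0.210) and 0.67 (SE 0.218). H2-DMb2, a β chain, had 25.5, 20.2, 22.1 and 20.2 CPM in cKO iNK, against 8.28, 6.55 and 7.04 CPM in control iNK, a log2 fold change of 1.59 (SE 0.282). In iILC1 it had 12.5, 13.0, 17.2 and 16.3 CPM in cKO, against 6.73, 13.7 and 9.53 CPM in control, a log2 fold change of 0.54 (SE 0.277). The libraries of H2-DMb2 overlapped in iILC1 and were apart in iNK. H2-DMb1, the neighbouring β chain gene, had 14.1, 13.0, 14.3 and 21.2 CPM in cKO iNK, against 11.1, 10.8 and 13.0 CPM in control iNK. In iILC1 it had 22.3, 20.2, 16.7 and 15.6 CPM in cKO, against 9.94, 8.94 and 10.4 CPM in control. Its cKO libraries lay above its control libraries in both cell types, by a narrow margin in iNK, with log2 fold changes of 0.44 (SE 0.262) in iNK and 0.94 (SE 0.272) in iILC1. The transcripts of the β chain genes share sequence: 24.76% of the 50-base words of H2-DMb2 and 22.65% of those of H2-DMb1 occur in other genes, in most cases the other β gene, so the split of reads between them is uncertain. Of the other 8 members, H2-Aa shared 0.4882% of its words and the rest none.

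H2-O, the inhibitor of H2-DM, had its higher values in iNK cells. H2-Oa had 31.8, 29.3, 43.0 and 43.5 CPM in cKO iNK, against 25.0, 26.5 and 22.1 CPM in control iNK. In iILC1 it had 10.2, 11.6, 10.8 and 5.97 CPM in cKO, against 7.60, 3.18 and 4.58 CPM in control. The genotypes were apart in iNK and overlapped in iILC1, where cKO replicate 4 lay below control replicate 1. H2-Ob had 58.4, 38.4, 56.3 and 63.8 CPM in cKO iNK, against 22.8, 27.0 and 21.9 CPM in control iNK. In iILC1 it had 27.4, 10.2, 14.95 and 14.9 CPM in cKO, against 10.5, 11.9 and 13.9 CPM in control. Here too the genotypes were apart in iNK and overlapped in iILC1. The log2 fold changes in iNK were 0.59 (SE 0.265) for H2-Oa and 1.18 (SE 0.265) for H2-Ob, and those in iILC1 were 0.95 (SE 0.312) and 0.47 (SE 0.279).

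Ciita, the coactivator of the family, was not called in either cell type. It had 16.5, 17.3, 27.4 and 17.5 CPM in cKO iNK, against 10.5, 14.2 and 16.5 CPM in control iNK. In iILC1 it had 14.7, 25.5, 23.2 and 19.8 CPM in cKO, against 12.9, 23.9 and 18.3 CPM in control. The lowest cKO iNK and the highest control iNK library both stood at 16.5 CPM, and the iILC1 groups overlapped over most of their range. The log2 fold changes were 0.52 (SE 0.276) in iNK and 0.17 (SE 0.274) in iILC1.

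Over all genes, 0.148% were higher and 0.259% lower in cKO than in control iNK, and 0.0222% higher and 0.0259% lower in cKO than in control iILC1, at an adjusted p under 0.05 in edgeR's quasi-likelihood test. Of the 10 members it called 6 higher in cKO iNK (Cd74, H2-Aa, H2-Ab1, H2-Eb1, H2-DMb2, H2-Ob) and 4 higher in cKO iILC1 (Cd74, H2-Aa, H2-Ab1, H2-Eb1), and none lower in either. Since the members were chosen with these differences known, nothing is read from the counts. The call of H2-Ob in iNK was lost in 6 of the 14 fits that left out 1 library, namely when any control iNK library was absent, or cKO iNK replicate 1, 3 or 4, with log2 fold changes of 1.13 to 1.30. In iILC1, no member was called without control iILC1 replicate 3. Without control iILC1 replicate 2, 2 were called, and H2-Ab1 was also lost without control iILC1 replicate 1 or cKO iILC1 replicate 3, at 1.41 and 1.20 on the log2 scale. All 4 cKO libraries lay above all 3 control libraries for 9 members in iNK and 6 in iILC1, where 4.09% and 2.66% of all genes did so, and below them for none, where 4.75% and 2.82% of all genes did. The median log2 fold change of the members was 1.39 in iNK and 0.94 in iILC1, beside 0.06 and 0.01 over all genes tested.

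**Figure D2:**
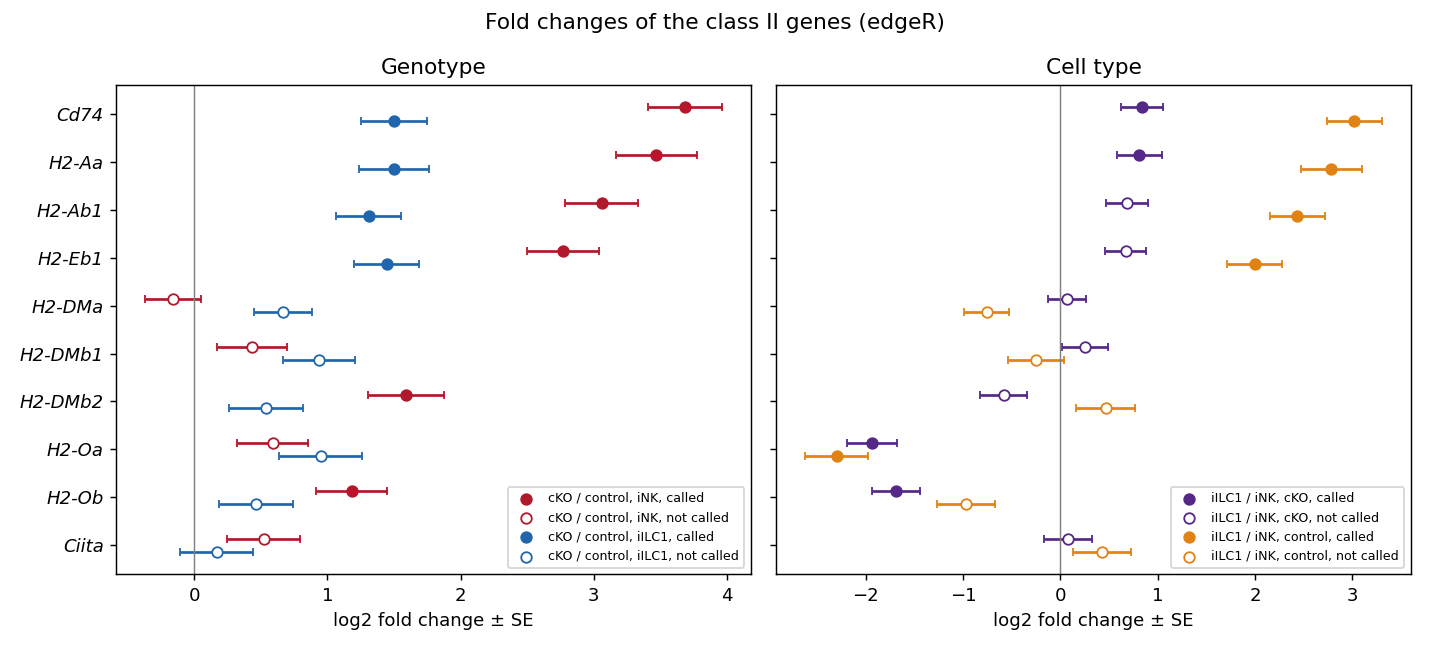
Log2 fold changes with SE of the 10 class II genes, for cKO over control in iNK and iILC1 (left) and for iILC1 over iNK in cKO and control mice (right); filled points passed edgeR's test and open points did not. Cd74, H2-Ab1, H2-Aa and H2-Eb1 lie farthest right in each comparison, and H2-Oa lies left of 0 in both comparisons of cell types.

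In control mice, iILC1 and iNK cells differed in class II in both directions: the chains and Cd74 were higher in iILC1 cells, and H2-Oa was lower. Cd74 was 3.02 higher on the log2 scale in iILC1 (SE 0.280, edgeR adjusted p = 8.86e-09), with 116 ± 37.5 CPM in control iILC1 and 14.2 ± 3.35 CPM in control iNK (SD, n = 3 each). H2-Aa averaged 31.0 ± 8.62 CPM in control iILC1 and 4.49 ± 1.52 CPM in control iNK (log2 fold change 2.78, SE 0.313, edgeR adjusted p = 4.71e-07). H2-Ab1 averaged 45.5 ± 5.91 CPM in control iILC1 and 8.40 ± 2.98 CPM in control iNK (2.43, SE 0.282, edgeR adjusted p = 7.53e-07). H2-Eb1 averaged 21.5 ± 7.82 CPM in control iILC1 and 5.33 ± 0.373 CPM in control iNK (1.99, SE 0.282, edgeR adjusted p = 2.35e-05). Every control iILC1 library lay above every control iNK library for these 4 genes. H2-Oa averaged 5.12 ± 2.26 CPM in control iILC1 and 24.5 ± 2.26 CPM in control iNK, a log2 fold change of -2.30 (SE 0.324, edgeR adjusted p = 2.24e-05). H2-Oa passed in all 14 fits that left out 1 library. H2-Ob (-0.97, SE 0.295, edgeR adjusted p = 0.0558) and H2-DMa (-0.76, SE 0.231, edgeR adjusted p = 0.0560) missed the threshold, and both passed without control iNK replicate 3 (adjusted p of 0.0474 and 0.0439 by edgeR), without cKO iILC1 replicate 1 (0.0174 and 0.0246) and without both low-background libraries (0.0255 and 0.0445). H2-DMb1 (-0.25), H2-DMb2 (0.47) and Ciita (0.43) did not pass. Of all genes, 0.945% were called higher and 3.16% lower in iILC1, beside 4 and 1 of the 10 members. All control iILC1 libraries lay above all control iNK libraries for 4 members and below them for 4, and for 12% and 13% of all genes.

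In cKO mice, Cd74 and H2-Aa were higher and both H2-O genes lower in iILC1 than in iNK cells. Cd74 averaged 326 ± 57.0 CPM in cKO iILC1 and 182 ± 26.7 CPM in cKO iNK (SD, n = 4 each), a log2 fold change of 0.84 (SE 0.217, edgeR adjusted p = 0.0199). H2-Aa averaged 87.5 ± 21.4 CPM in cKO iILC1 and 49.8 ± 11.4 CPM in cKO iNK (0.81, SE 0.228, edgeR adjusted p = 0.0382). Cd74 did not overlap between the cell types, whereas the lowest cKO iILC1 library of H2-Aa, replicate 4, lay within the cKO iNK range. H2-Ab1 (0.69, SE 0.216) and H2-Eb1 (0.67, SE 0.211) had an edgeR adjusted p = 0.0830 each. Both passed with a replicate block (edgeR adjusted p of 0.0316 and 0.0352), with a filter at 5 CPM (0.0211 and 0.0169), with background as a covariate (0.0396 and 0.00817) and with only these 2 groups in the fit (0.0291 and 0.0225). H2-Oa averaged 9.65 ± 2.52 CPM in cKO iILC1 and 36.9 ± 7.43 CPM in cKO iNK, a log2 fold change of -1.94 (SE 0.255, edgeR adjusted p = 2.58e-06). H2-Ob averaged 16.8 ± 7.37 CPM in cKO iILC1 and 54.2 ± 11.0 CPM in cKO iNK, a log2 fold change of -1.69 (SE 0.244, edgeR adjusted p = 1.38e-05). For both H2-O genes the cell types did not overlap, and both calls remained in each fit that left out 1 library. H2-DMa (0.07), H2-DMb1 (0.25), H2-DMb2 (-0.58) and Ciita (0.08) did not pass. Of all genes, 1.75% were called higher and 1.66% lower in cKO iILC1, beside 2 and 2 of the 10 members. The cKO iILC1 libraries lay wholly above the cKO iNK libraries for 3 members and below them for 3, and for 3.52% and 3.08% of all genes. With libraries left out, the call of Cd74 was lost without cKO iNK replicate 3 (0.86, edgeR adjusted p = 0.0567), and that of H2-Aa without cKO iNK replicate 1, 2 or 4 or cKO iILC1 replicate 3 (edgeR adjusted p of 0.0604 to 0.163) and without both low-background libraries (edgeR adjusted p = 0.0560), where H2-Ab1 passed (0.66, edgeR adjusted p = 0.0499), as it did without cKO iILC1 replicate 1 (edgeR adjusted p = 0.0372). Without cKO iILC1 replicate 4, H2-Ab1 (0.80, edgeR adjusted p = 0.0262) and H2-Eb1 (0.78, edgeR adjusted p = 0.0345) passed as well, which made 4 higher members. These comparisons use the same libraries as those of genotype.

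On the log2 scale, the genotype difference of Cd74, H2-Aa and H2-Ab1 was smaller in iILC1 than in iNK. In CPM, the difference of the means was the larger in iILC1 for each of these genes. Mean Cd74 was 14.2 CPM in control and 182 CPM in cKO iNK, and 116 and 326 CPM in iILC1. H2-Aa of control iNK, at 2.39 CPM per kilobase of exon, lay below the 95th percentile of the receptor genes (3.54). The interaction, coded as the log2 fold change in iILC1 minus that in iNK, was -2.18 for Cd74 (SE 0.345, edgeR adjusted p = 0.00261), -1.97 for H2-Aa (SE 0.383, edgeR adjusted p = 0.0280) and -1.75 for H2-Ab1 (SE 0.350, edgeR adjusted p = 0.0346). H2-Eb1 was at -1.32 (SE 0.350, edgeR adjusted p = 0.326). The other 6 members did not pass, from -1.05 for H2-DMb2 to 0.82 for H2-DMa, and 0.0556% of all genes were called lower and 0.0222% higher. The interaction is built from the 2 genotype differences known when the members were chosen and is no independent support for them. Cd74 passed in each fit that left out 1 library. H2-Aa did not pass when control iNK replicate 1 or 3 was absent, or cKO iNK replicate 1 or 3, or control iILC1 replicate 1 or 2 (edgeR adjusted p of 0.0604 to 0.164). H2-Ab1 did not pass when control iNK replicate 1 was absent, or cKO iNK replicate 1 or 3, or any control iILC1 library (edgeR adjusted p of 0.0649 to 0.210), nor without both low-background libraries (-1.50, edgeR adjusted p = 0.121).

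The make-up of the class II set differed between the groups. The 10 members summed to 539 ± 85.8 CPM in cKO iNK (SD, n = 4), 171 ± 15.5 CPM in control iNK (n = 3), 719 ± 117 CPM in cKO iILC1 (n = 4) and 303 ± 57.6 CPM in control iILC1 (n = 3). Cd74, H2-Ab1, H2-Aa and H2-Eb1 made up 62.8 ± 0.769% of the sum in cKO iNK, 18.9 ± 1.55% in control iNK, 81.1 ± 1.80% in cKO iILC1 and 69.8 ± 6.17% in control iILC1. Control iNK was thus the group in which the accessory genes held most of the sum, and its highest library, at 20.5%, lay below the lowest library of any other group, at 62.0%. The other 6 members summed to 200.03 ± 30.3 CPM in cKO iNK, 138 ± 9.96 CPM in control iNK, 135 ± 16.0 CPM in cKO iILC1 and 89.3 ± 8.12 CPM in control iILC1.

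Levels between genes were compared per kilobase of exon. In cKO iNK, cKO iILC1 and control iILC1, Cd74 was the highest member, at 129, 231 and 82.0 CPM per kilobase, and H2-Ab1 the next, at 42.8, 68.9 and 27.8. In control iNK the order was another: H2-DMa came first at 35.0 CPM per kilobase, H2-Oa next at 18.7 and then Cd74 at 10.1, with H2-Aa last at 2.39. The ratio of Cd74 to H2-Aa per kilobase overlapped between the groups, at 4.96 ± 0.652 in cKO iNK, 4.38 ± 0.899 in control iNK, 5.04 ± 0.576 in cKO iILC1 and 4.99 ± 0.983 in control iILC1. The ratio of H2-DMa to H2-Aa per kilobase was highest in control iNK, at 1.20 ± 0.100 in cKO iNK, 15.6 ± 4.68 in control iNK, 0.724 ± 0.146 in cKO iILC1 and 1.30 ± 0.244 in control iILC1. As a floor, the 95th percentile of 1318 olfactory and vomeronasal receptor genes lay at 4.43, 3.54, 4.79 and 4.84 CPM per kilobase in cKO iNK, control iNK, cKO iILC1 and control iILC1. Ciita, at 3.75, 2.61, 3.96 and 3.49 CPM per kilobase in the same order, was below this floor in every group. H2-Aa was below it in control iNK, and H2-Oa (3.90) and H2-Ob (3.85) in control iILC1.

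**Figure D3:**
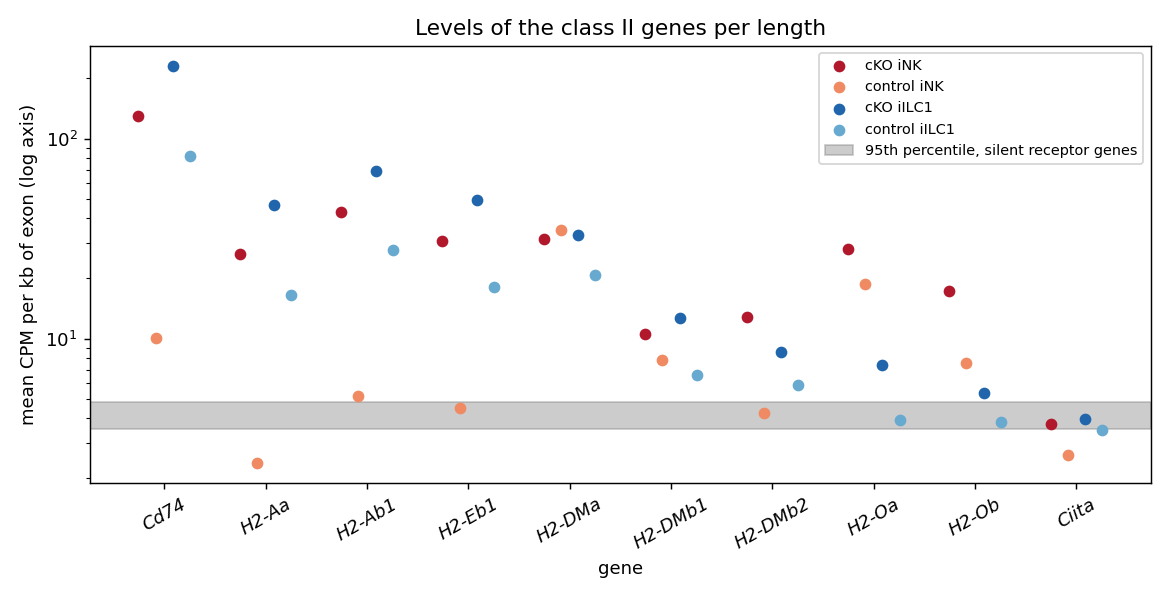
Mean CPM per kilobase of exon of each class II gene in the 4 groups (log axis); the grey band spans the 95th percentiles of receptor genes that should be silent in lymphocytes. Cd74 reaches 231 CPM per kilobase in cKO iILC1, while Ciita stays in or under the band in each group.

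No other gene of the pathway lists was called for genotype by edgeR. H2-Ea-ps, the defective I-E α chain gene, ranged from 1.21 to 4.32 CPM over the 14 libraries, and neither it nor H2-Eb2 was called in any comparison. Of 7 genes for the proteins that bind the X and Y boxes (Rfx5, Rfxap, Rfxank, Nfya, Nfyb, Nfyc, Creb1), edgeR called 0 in each of the 5 comparisons, with 0 at an unadjusted p under 0.05 for genotype, 3 lower in control iILC1 than in control iNK, and 0 by DESeq2. Without both low-background libraries, 1 of them was called lower in cKO iILC1 than in cKO iNK. Their median log2 fold change was -0.14 in iNK and 0.17 in iILC1. Of 7 genes on the interferon-γ route to Ciita (among them Ifngr1, Ifngr2, Jak1, Jak2, Irf1 and Socs1), edgeR called 0 for genotype. At an unadjusted p under 0.05, 1 was higher and 1 lower in cKO iNK and 2 were higher in cKO iILC1, and DESeq2 called 1 lower in cKO iNK and 0 in cKO iILC1. Between the cell types, the kinase gene Jak1 was lower in iILC1 in control mice (-1.04, edgeR adjusted p = 0.0471) and in cKO mice (-1.05, edgeR adjusted p = 0.0156). The control call of Jak1 was kept in 6 of the 14 fits that left out 1 library and lost without both low-background libraries (edgeR adjusted p = 0.0867), while the cKO call was kept in 12 of the 14. In cKO mice, Socs1, a feedback inhibitor of cytokine signalling, was 1.08 higher in iILC1 than in iNK (edgeR adjusted p = 0.0253), and the kinase gene Jak2 was 0.99 higher (edgeR adjusted p = 0.00535). The call of Socs1 was kept in 10 of the 14 fits and lost without both low-background libraries (0.82, edgeR adjusted p = 0.113), and that of Jak2 was kept in all of these.

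Endosomal proteases degrade antigen and the invariant chain. Of 9 genes for endosomal processing and class II turnover, edgeR and DESeq2 called 0 for genotype, with 1 higher in cKO iNK and 0 in cKO iILC1 at an unadjusted p under 0.05. Ctss, for cathepsin S, which trims the invariant chain, was lower in iILC1 than in iNK, by -0.96 in control mice (edgeR adjusted p = 0.0412) and by -0.83 in cKO mice (edgeR adjusted p = 0.0381). Ctsb, for the protease cathepsin B, was 0.77 higher in cKO iILC1 than in cKO iNK (edgeR adjusted p = 0.0479), a call kept in 7 of the 14 fits that left out 1 library and lost without both low-background libraries (0.50, edgeR adjusted p = 0.173). The calls of Ctss were kept in 6 of the 14 fits in control mice and 8 of the 14 in cKO mice. Of 5 costimulation genes (Cd80, Cd86, Cd40, Icosl, Cd83), 0 were called for genotype by edgeR or DESeq2, with 1 higher in each cell type at an unadjusted p under 0.05. Icosl, the ligand of the T-cell costimulator ICOS, was 1.50 higher in cKO iILC1 than in cKO iNK (edgeR adjusted p = 0.000477).

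Class I molecules show peptides of the cell's own proteins, through a separate loading route. Of 10 class I presentation genes, edgeR called 0 for genotype in either cell type, with 5 lower in cKO iNK and 0 in cKO iILC1 at an unadjusted p under 0.05, and DESeq2 called 1 lower in cKO iNK and 0 in cKO iILC1. The estimate was above 0 for 0 of 10 in iNK (median log2 fold change -0.49) and for 9 of 10 in iILC1 (median 0.22). Nlrc5, the class I counterpart of Ciita, was 0.97 higher in cKO iILC1 than in cKO iNK (edgeR adjusted p = 0.0113). No class I gene was called in the interaction or between the cell types of control mice by edgeR, where 4 were higher and 2 lower at an unadjusted p under 0.05, in that order, and DESeq2 called 0 and 1.

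B cells also express class II, and B-cell genes were higher in cKO than in control iNK. Of 20 B-cell markers, edgeR called 11 higher in cKO than in control iNK, among them Ly6d (3.97), Fcmr (3.85) and Cd79a (3.59 on the log2 scale), and the median of the 20 was 1.82. Without both low-background libraries 10 were called. Cd79a, whose protein passes on signals from the surface immunoglobulin of B cells, had 42.1, 24.3, 27.7 and 52.3 CPM in cKO iNK, against 4.84, 2.78 and 1.44 CPM in control iNK. The lowest cKO iNK library, replicate 2, was also lowest for the 4 leading class II genes. The same library was lowest for the summed class I genes (7502 CPM) and genes of X and Y box proteins (278 CPM). It was highest for the summed monocyte and macrophage markers (169 CPM). The summed B-cell marker level was 885 to 1374 CPM in cKO iNK and 490 to 697 CPM in control iNK. No marker of this list was at 0 in every library of a group. The part of B-cell RNA in the class II values of cKO iNK was not tested.

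In iILC1 no B-cell marker was called for genotype. Cd79a had 4.60, 6.37, 4.29 and 0.381 CPM in cKO iILC1, against 4.39, 2.39 and 2.93 CPM in control iILC1, and the genotypes overlapped. Of the 20 markers, edgeR called 0 in cKO against control iILC1, with 0 higher and 1 lower at an unadjusted p under 0.05 and 0 by DESeq2. The estimate was above 0 for 6 of the 20, and the median log2 fold change was -0.09. Their summed level was 507 to 763 CPM in cKO iILC1 and 457 to 575 CPM in control iILC1. The ratio of Cd74 to Cd79a counts was 5.31 ± 1.31 in cKO iNK (SD, n = 4) and 5.75 ± 2.79 in control iNK (SD, n = 3), and overlapped between these groups. In iILC1 it was 80.9, 53.7 and 80.9 in cKO replicates 1 to 3, against 35.1, 47.7 and 27.0 in control, so that these cKO libraries lay above the control libraries. Replicate 4 of cKO iILC1 held 3 counts of Cd79a, too few for a ratio, and the control iNK libraries held 9 to 31. The 4 leading class II genes were also set over the sum of the 20 markers. This ratio was 0.289 ± 0.0225 in cKO iNK and 0.0543 ± 0.00925 in control iNK, without overlap. For all 10 members over the 20 markers, the ratio was 0.460 in cKO iNK and 0.287 in control iNK. With Ighm, Ighd and Igkc left out of the markers, it was 1.29 in cKO iNK and 1.38 in control iNK. The ratio of all 10 members in iNK thus depends on the markers taken. That of the 4 leading genes was not computed without these immunoglobulin genes. Between the cell types, edgeR called 0 of the 20 markers in control mice, with 4 higher and 1 lower in iILC1 at an unadjusted p under 0.05 and 0 by DESeq2. In cKO mice 12 were lower in iILC1 (11 without both low-background libraries), as were H2-Oa and H2-Ob, whereas Cd74 and H2-Aa were higher. In the interaction 5 were lower.

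**Figure D4:**
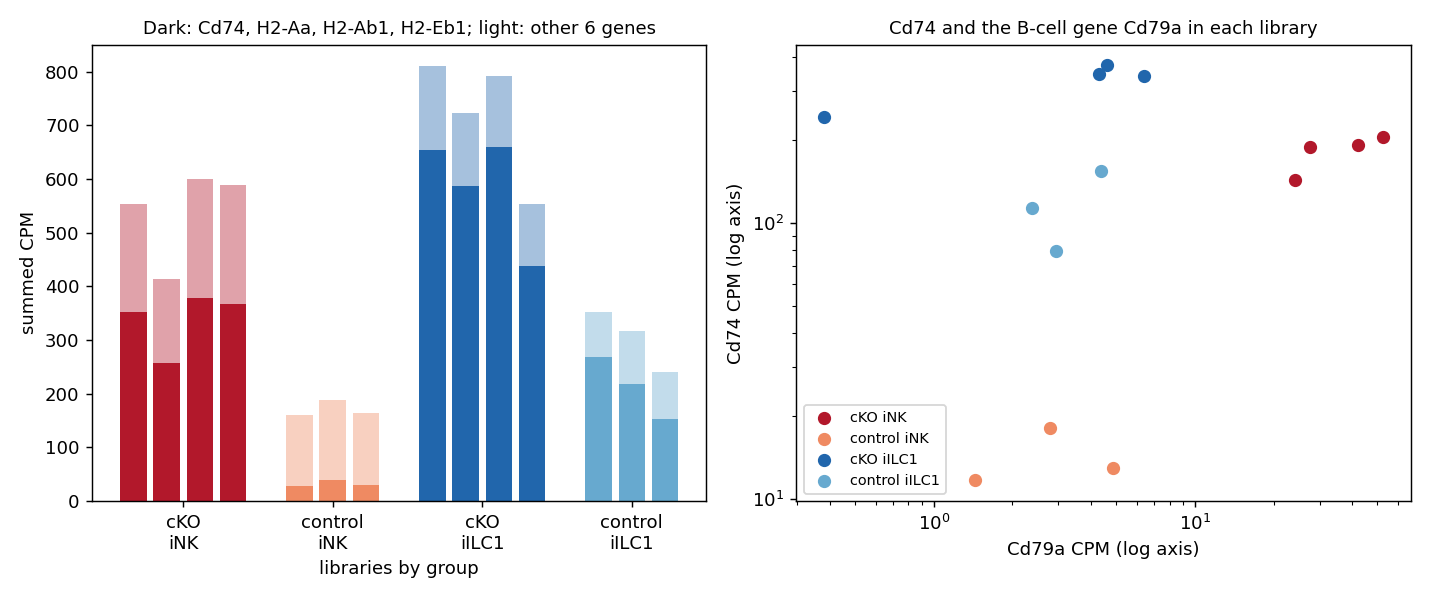
Left: summed CPM of Cd74, H2-Ab1, H2-Aa and H2-Eb1 (dark) and of the other 6 class II genes (light) in each library, by group. Right: Cd74 against the B-cell gene Cd79a in each library, in CPM on log axes; cKO iNK libraries have 24.3 to 52.3 CPM of Cd79a, while the cKO iILC1 libraries, with more Cd74, have 0.381 to 6.37.

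Macrophages express class II as well. Of 12 monocyte and macrophage markers, edgeR and DESeq2 called 0 for genotype in either cell type, with 0 at an unadjusted p under 0.05. In iILC1 against iNK, 5 were higher in cKO mice and 3 in control mice (4 and 2 without both low-background libraries), led by the complement gene C1qb (4.33 and 3.16 on the log2 scale) and by Mrc1, a mannose receptor (1.80 and 1.87). C1qb averaged 18.8 ± 9.37 CPM in cKO iILC1 and 0.937 ± 0.714 CPM in cKO iNK, and 14.1 ± 8.13 CPM in control iILC1 and 1.53 ± 0.715 CPM in control iNK. The summed level of this list was 196 to 391 CPM in cKO iILC1 and 75.4 to 169 CPM in cKO iNK, and 143 to 230 CPM in control iILC1 and 142 to 182 CPM in control iNK. The sums were apart between the cell types in cKO mice and overlapped in control mice. By gene, the estimate in iILC1 against iNK was above 0 for 12 of 12 markers in cKO mice (median log2 fold change 1.05). In control mice it was above 0 for 11 of 12 (median 0.996). The part of macrophage RNA in the class II values was not tested.

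Of 10 conventional dendritic cell markers tested, Ccr7, a homing receptor shared with lymphocytes, was 1.41 higher in cKO than in control iNK, the only one with an unadjusted p under 0.05, and a call kept in 8 of the 14 fits that left out 1 library. The estimate was above 0 for 8 of the 10 (median log2 fold change 0.39), and 0 were called in iILC1 by edgeR, by DESeq2 or at an unadjusted p under 0.05. Of 7 plasmacytoid dendritic cell markers, Spib, a transcription factor gene also active in B cells, was 3.15 higher in cKO than in control iNK. In this comparison 4 of the 7 were higher at an unadjusted p under 0.05 (median log2 fold change 0.46), and 0 were called in iILC1 by edgeR, by DESeq2 or at an unadjusted p under 0.05. The summed level of the conventional list was 435 to 651 CPM in cKO iNK and 353 to 600 CPM in control iNK, and 233 to 302 CPM in cKO iILC1 and 293 to 339 CPM in control iILC1. That of the plasmacytoid list was 363 to 524 CPM in cKO iNK and 386 to 537 CPM in control iNK, and 252 to 360 CPM in cKO iILC1 and 232 to 312 CPM in control iILC1. These sums overlapped between the genotypes in both cell types. In control mice, Itgax of the conventional list and Irf8 and Cox6a2 of the plasmacytoid list were called lower in iILC1 than in iNK, while the estimates of 7 of 10 and 4 of 7 genes were above 0 (medians 0.26 and 0.70). In cKO mice, edgeR called 2 conventional genes lower and 0 higher, with 3 of 10 estimates above 0 (median -0.23). Of the plasmacytoid genes it called 3 lower and 1 higher (0 higher without both low-background libraries), with 2 of 7 estimates above 0 (median -0.85). The part of dendritic-cell RNA in the class II values was not tested. Erythroid genes stood higher in cKO iNK in sum, at 78.8 to 616 CPM, against 9.17 to 47.6 CPM in control iNK. The edgeR test called 0 of the 8 erythroid genes, with 5 higher at an unadjusted p under 0.05 and 2 by DESeq2, and their part was not tested. No T-cell marker was called higher in cKO: the αβ receptor gene Trac fell by 1.46 on the log2 scale in cKO iILC1 against control iILC1, a call kept in 11 of the 14 fits that left out 1 library. Of the 9 T-cell markers tested there, 5 were lower at an unadjusted p under 0.05, 2 by DESeq2 and 3 by edgeR without both low-background libraries, with a median log2 fold change of -1.02, and their part was not tested. In cKO against control iNK, 0 T-cell markers passed by edgeR or DESeq2, with 1 lower at an unadjusted p under 0.05.

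Genes outside the family were ranked by likeness to its leading genes. Over the 14 libraries, the 5 genes whose log2 CPM was most like the mean log2 CPM of Cd74, H2-Ab1, H2-Aa and H2-Eb1, among 12044 candidates whose mean reached 10 CPM in some group, were Krba1 (Pearson r 0.90), Gm37873 (0.88), Egln3 (0.87), Itgb5 (0.86) and Fan1 (0.86). The points share libraries, depth and group, and none of these 5 genes was called by edgeR in any of the 5 comparisons. Krba1 averaged 43.7 CPM in cKO iNK and 27.3 CPM in control iNK, and 51.1 CPM in cKO iILC1 and 40.9 CPM in control iILC1. Of the other members, H2-DMb2 (r 0.69), H2-DMb1 (0.59) and Ciita (0.58) came closest, and H2-Ob (0.01), H2-DMa (-0.04) and H2-Oa (-0.20) did not follow the leading genes.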

How the data were processed

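Bulk RNA-seq of sorted mouse bone marrow cells was analysed from the table of raw counts per Ensembl gene that the authors deposited. Full-length cDNA was made with SMART-Seq v4 and tagged from 1 ng with Nextera XT, per the labels' protocols. The submitters' processing notes name mm10 as build, and the tools Trimmomatic 0.33, HISAT2 2.1.0 and Subread 1.6.5 with featureCounts. Strand setting, annotation release and treatment of reads with several hits are not given in the sources used here. Of 46078 identifiers, 45143 (97.97%) matched a symbol.

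Genes were filtered with filterByExpr (minimum count 10, minimum total 15), which left 26990, scaled by TMM and tested with edgeR 4.0.16 in R 4.3.3 (robust quasi-likelihood F test, two-sided, Benjamini-Hochberg over all genes tested, threshold 0.05). The fit held 14 libraries and 4 group means (10 residual degrees of freedom, common biological coefficient of variation 30%). SEs were derived from the F statistic. DESeq2 1.42.0 was an alternative, and the code was tested on simulated counts.

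The members, gene lists and tests were chosen with earlier results of these data known. Named were the 10 members, up to 3 called genes of each pathway list, up to 4 B-cell genes, and the 5 genes most like the leading members; marker genes of other cells were named after their values were seen. Some genes of these lists enter the counts and sums and are not reported here by name. Promoters came from RefSeq (GRCm38.p6), and shared 50-base words from GENCODE vM21 transcripts. Replicates differed by more than sampling noise (chi-square per degree of freedom 4.97 to 27.1), so none was counted as a copy. Since separate mice are not stated, p-values cover the spread between samples, which may be technical.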

Additional observations from a re-analysis of the deposited data

Results flagged for a closer look

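In 20 groups of 4 libraries (10 genes in each of the cKO groups), 2 held a highest library set apart from the other 3 by more than Dixon's 95% limit of 0.829: H2-DMb1 in cKO iNK, at 21.2 CPM in replicate 4, and Ciita in cKO iNK, at 27.4 CPM in replicate 3. Chance gives about 1 such group in 20. Neither gene was called for genotype in iNK.

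On the log2 scale and not in CPM, the genotype difference was smaller in iILC1 than in iNK. A test of the difference itself gave -2.18 for Cd74, -1.97 for H2-Aa and -1.75 for H2-Ab1, on the log2 scale. These values rest on the libraries with which the members were chosen.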

How the results depend on the processing

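Over the 10 members and 5 comparisons, 1072 of 1140 values under another setting kept their direction and their side of the threshold. Of the rest, 33 lost a call, 28 gained one and 7 turned their sign. The values after the turn lay near 0, though Ciita between the cell types in control mice stood at 0.43 in the main fit. Those 7 were Ciita in cKO against control iILC1 without control iILC1 replicate 1 (-0.00741 to 0.41 over the libraries left out), Ciita between the cell types with background as a covariate (-0.042 in control, -0.071 in cKO) and without cKO iILC1 replicate 2 (-0.0079 to 0.28 in cKO), and H2-DMa between the cell types in cKO without cKO iNK replicate 2 (-0.012), without cKO iILC1 replicate 1 (-0.025 to 0.16) and without both low-background libraries (-0.068). The cause was not tested. That last setting, and a fit without robust moderation, were added after the data were seen.

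Members called higher were 5 to 6 in iNK and 0 to 4 in iILC1 when 1 library was left out, and 6 and 4 under the other settings. In control mice, 1 member was lower in iILC1, and 1 to 3 with a library left out, 2 with RLE size factors, with no filter or with 2 groups in the fit, and 3 with a filter at 5 CPM, with the replicate block, with DESeq2 or without the low-background libraries. In cKO mice, 2 were higher, and 1 to 4 with a library left out, and 4 with a filter at 5 CPM, the block, the covariate or 2 groups in the fit. In the interaction 3 were lower, and 1 to 3 with a library left out.

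Calls over all genes moved more. For genotype in iNK, 110 became 242 with a filter at 5 CPM, 398 with the covariate, 244 with 2 groups in the fit, 290 with DESeq2 and 62 to 229 with a library left out. For genotype in iILC1, 13 became 30 with no filter, 41 at 5 CPM, 57 with the covariate, 21 without the low-background libraries, 42 with DESeq2 and 4 to 28 with a library left out. Between the cell types in control, 1109 became 1692 at 5 CPM, 1741 with 2 groups, 2211 with DESeq2 and 400 to 2108 with a library left out; in cKO, 920 became 1685 with the covariate and 716 to 1107. In the interaction, 21 became 34 with the covariate, 38 with DESeq2 and 9 to 31.

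Replicate numbers were not used as pairs in the main fit. Of 19 same-numbered pairs across groups, 9 had a correlation of deviations over 0.1 (-0.0918 to 0.389). All pairs of replicate 1 and of replicate 3 were positive, and those of replicate 2 had both signs. Pairs of unlike number were not compared, so pairing is neither shown nor excluded. With the replicate block, 189, 38, 2328, 1224 and 36 genes were called for genotype in iNK, genotype in iILC1, cell type in control, cell type in cKO and the interaction. Without it these were 110, 13, 1109, 920 and 21.

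The class II to B-cell marker ratio with Ighm, Ighd and Igkc left out was 1.29 in cKO iNK, 1.38 in control iNK, 4.48 in cKO iILC1 and 1.79 in control iILC1, against 0.460, 0.287, 1.17 and 0.609 with them. On plain library totals the class II sum of control iNK was 149 CPM, against 171. The control iILC1 libraries were the shallowest, so their low members, such as H2-Oa with 16 to 26 counts, are the least precise.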

Other observations

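Of 7 neutrophil precursor markers, edgeR called 0 in each of the 5 comparisons (0 by DESeq2 for genotype, where 1 was lower in each cell type at an unadjusted p under 0.05), and their sum was 13.6 to 421 CPM in cKO iNK and 64.6 to 292 CPM in control iNK, and 21.4 to 297 CPM in cKO iILC1 and 23.1 to 30.01 CPM in control iILC1. The ILC2 factor gene Rora was 2.14 higher in iILC1 than in iNK of cKO mice and 1.44 higher in control mice, on the log2 scale. Of the 4 ILC2 markers tested, edgeR called Rora alone. The estimates of 3 of the 4 in cKO mice and of 4 of 4 in control mice were positive. Cd3e, a chain of the T-cell receptor complex that the sort selected against at the surface, had the highest estimate of the T-cell list in iILC1 against iNK. It was 2.94 higher in cKO mice and 4.27 higher in control mice, on the log2 scale. Of the 9 T-cell markers tested, edgeR called 3 higher and 0 lower in cKO mice, and 4 higher and 0 lower in control mice. The estimates of 5 of the 9 in cKO mice and of 8 of the 9 in control mice were positive.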
